A study of Mus musculus with 7 samples.

Results

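The miRNAs described here come from 10 neighbouring hairpins of the imprinted Dlk1-Dio3 domain on mouse chromosome 12, upstream of the large miR-379 cluster around Mirg. They were chosen by position, as hairpins antisense to Rtl1, just before it on the plus strand, or within the noncoding transcript Rian. They comprise 20 of the 1966 mature miRNA rows. The hairpins mmu-miR-337, mmu-miR-540 and mmu-miR-665 lie before Rtl1 on the plus strand. Since Rtl1 runs on the minus strand, this is past its end, and "upstream" below refers to the plus strand. Antisense to Rtl1 are mmu-miR-431, mmu-miR-433, mmu-miR-127, mmu-miR-434 and mmu-miR-136, and mmu-miR-341 and mmu-miR-370 lie in Rian. The species prefix is left out below. Small RNA was sequenced from mouse hepatocytes prepared by collagenase perfusion and low-speed spins, in ALAS12-KO (n = 4) and WT (n = 3), to study how ALAS bears on small RNAs. The Alas genes encode aminolevulinate synthase, with which heme synthesis starts. Both genotypes carry the treatment label TMX, which the labels do not spell out. The sources used here do not state the age of the mice, how the alleles were made, or whether animals were pooled.

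The Dlk1-Dio3 domain is expressed by parent of origin: Dlk1, Rtl1 and Dio3 are read from the paternal chromosome, and the noncoding RNAs, miRNAs among them, from the maternal one. Rtl1 is a gene derived from a retrotransposon and needed in the mouse placenta, and the miRNAs on its opposite strand are known to cut its mRNA through full complementarity. Many miRNAs of the domain are abundant in fetal tissues and brain and low in adult liver. In mouse liver the Rian region is known as a site where adeno-associated viral vectors insert in tumours, near Mir341.

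All 10 hairpins lie on the plus strand within 32548 bases (GRCm38.p6). Mir337 at chr12:109585789-109585885, Mir540 at chr12:109586080-109586146 and Mir665 at chr12:109586314-109586407 overlap neither Rtl1 nor Rian. Mir431 at chr12:109590447-109590537, Mir433 at chr12:109591715-109591838, Mir127 at chr12:109592846-109592915, Mir434 at chr12:109594506-109594599 and Mir136 at chr12:109595327-109595388 lie inside the coding sequence of Rtl1, which runs on the minus strand. Mir341 at chr12:109611500-109611595 and Mir370 at chr12:109618258-109618336 lie in introns of Rian, on its own strand.

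The mature sequences of the miRNAs with the most reads, and of both arms of miR-341, are shown 5′ to 3′ with the seed (bases 2 to 8) in capitals, since the seed and the match to Rtl1 set them apart from each other. They were taken from RefSeq on GRCm38.p6, where 20 of 20 rows had an entry.
miR-127-3p: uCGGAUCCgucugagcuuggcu
miR-127-5p: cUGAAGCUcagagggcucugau
miR-136-3p: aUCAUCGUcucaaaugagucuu
miR-136-5p: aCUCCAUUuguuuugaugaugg
miR-434-5p: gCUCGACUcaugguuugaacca
miR-434-3p: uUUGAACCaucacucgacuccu
miR-431-5p: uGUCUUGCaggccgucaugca
miR-337-5p: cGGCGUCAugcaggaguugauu
miR-337-3p: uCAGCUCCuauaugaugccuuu
miR-540-5p: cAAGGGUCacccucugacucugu
miR-341-3p: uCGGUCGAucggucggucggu
miR-341-5p: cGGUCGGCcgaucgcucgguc
The 20 mature sequences have 20 different seeds, so no grouping by seed was possible among them. Outside the 10 hairpins, a seed recurred for miR-540-3p, in miR-6915-5p, and for miR-370-5p, in miR-1193-3p. Both arms of the 5 antisense hairpins, 10 sequences in all, matched the GENCODE M21 Rtl1 transcript (6358 bases) as full reverse complements, each at 1 position. The other 10 sequences had no full match in that transcript.

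The libraries held 7719180 to 21962191 miRNA reads, of which the 10 hairpins took 313 to 2636. Levels are given as CPM, the counts per 1000000 miRNA reads of a library, so 1 CPM was 7.72 to 22.0 reads. The hepatocyte list, led by miR-122, took 60.7% to 69.4% of miRNA reads in ALAS12-KO and 63.4% to 66.2% in WT. The loss of the Alas genes could not be checked from miRNA reads. The labels do not state whether each replicate is an animal of its own, so every p-value reflects the spread among these libraries alone, and that spread may be technical.

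Summed over all 20 rows, the hairpins gave 54.8, 31.0, 28.0 and 49.7 CPM in ALAS12-KO replicates 1 to 4, against 74.4, 120 and 67.8 CPM in WT replicates 1 to 3. On these library totals all ALAS12-KO libraries were below all WT libraries, as for 15.3% of the 450 miRNAs tested below. With the TMM scaling of the main test the sums were 68.0, 35.3, 25.3 and 48.4 CPM in ALAS12-KO replicates 1 to 4, against 68.6, 118 and 60.1 CPM in WT replicates 1 to 3. The groups then overlapped, with ALAS12-KO replicate 1 above WT replicate 3. The means on library totals were 40.9 ± 13.4 CPM (SD, n = 4) in ALAS12-KO and 87.4 ± 28.4 CPM (SD, n = 3) in WT, so that the ALAS12-KO mean was 46.8% of the WT mean. With TMM scaling it was 53.7%. A sum over chosen members was given no p. In bulk libraries, fewer cells of a type and less RNA per cell cannot be told apart.

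miR-127, miR-136 and miR-434 made up most of these reads, at 87.0% ± 1.72 (SD, n = 4) in ALAS12-KO and 87.8% ± 0.838 (SD, n = 3) in WT. The share of miR-127 alone ran from 40.6% to 45.0% in ALAS12-KO and from 41.9% to 49.8% in WT. The makeup of the sum therefore overlapped between the genotypes. The hairpins miR-127, miR-136, miR-434, miR-431, miR-337, miR-540 and miR-665 each had an ALAS12-KO mean between 40.1% (miR-540) and 50.4% (miR-431 and miR-136) of the WT mean on library totals, with overlapping groups for miR-665. miR-341 stood at 71.2%, also with overlapping groups. With TMM scaling the groups overlapped for all 10 hairpins.

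**Figure D1:**
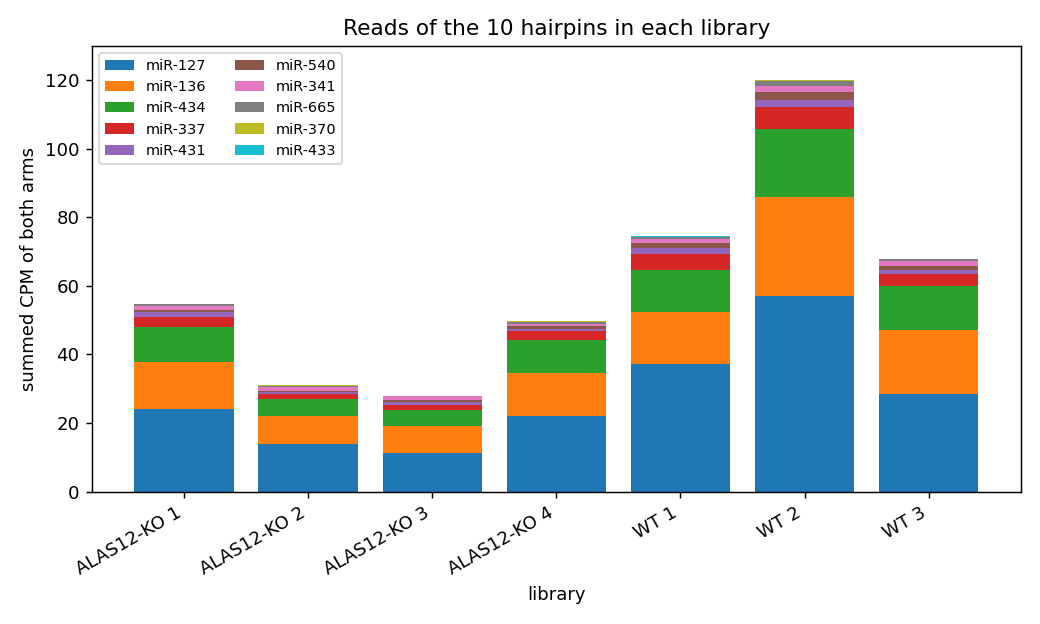
Summed CPM (library totals) of both arms of each of the 10 hairpins, stacked, in the 4 ALAS12-KO libraries and the 3 WT libraries. The ALAS12-KO bars end between 28.0 and 54.8 CPM and the WT bars between 67.8 and 120 CPM, and miR-127 is the largest block in each.

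Of the 20 rows, 11 had enough reads to be tested, 7 had a few reads and 2 (miR-433-5p and miR-665-5p) had 0 reads in all 7 libraries. A count of 0 allows up to 3 reads in a library, or 0.137 to 0.389 CPM. The filter asked for about 0.624 CPM in at least 3 libraries. All 11 tested rows met it in WT, and 9 also met it in at least 3 ALAS12-KO libraries. The exceptions, miR-540-5p and miR-341-3p, passed through WT, the group in which they are higher, so their direction came with the filter.

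No tested row passed the threshold of edgeR's quasi-likelihood test with Benjamini-Hochberg adjustment over 450 miRNAs, and all 11 log2 fold changes were negative. The background was 0% of the 450 called. At unadjusted p under 0.05, 7 of the 11 were lower in ALAS12-KO, where 8.44% of all 450 miRNAs were, and 0 were higher, where 10.2% of all 450 were. Without miR-540-5p and miR-341-3p, which passed the filter through WT, it was 5 of 9. The median log2 fold change was −0.999 over the 11, −0.86 over the 9 and 0.06 over the 450. Of all 450, 44.0% had a negative value. Arms of 1 hairpin and hairpins of 1 locus are not independent. DESeq2 called 1 of the 11, miR-337-5p, where it called 4.67% of all 450, and 1.56% as lower, and limma-voom called 0. With no filter on low counts, edgeR called 2 of 18 rows, miR-337-5p and miR-127-3p, where it called 0.998% of 1302 miRNAs. Without WT replicate 2, in which all 11 were at their highest, the median log2 fold change was −0.58 and 2 of the 11 had an unadjusted p under 0.05. That number was 3 without ALAS12-KO replicate 2 and 4 without ALAS12-KO replicate 3.

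**Figure D2:**
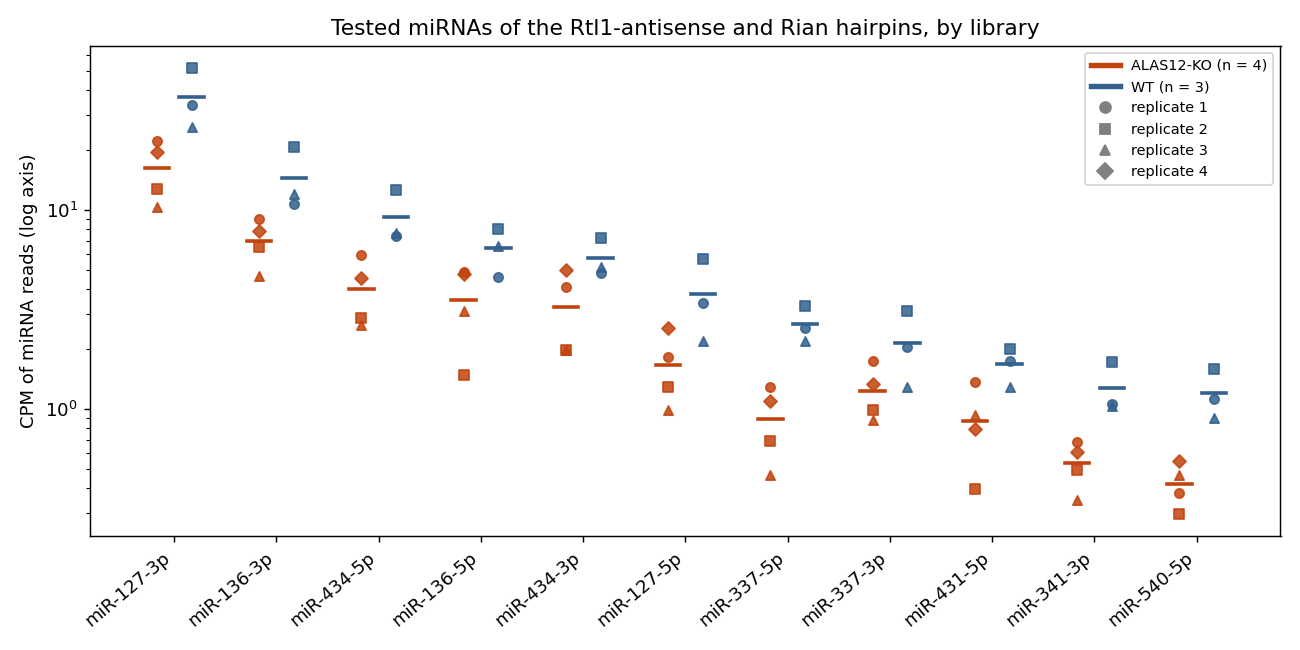
CPM of miRNA reads (log axis) of the 11 tested rows in each library, ALAS12-KO on the left of each pair and WT on the right, with horizontal lines at the means and symbols for replicates. WT replicate 2 (square) is the highest point of every pair, and the ALAS12-KO points of miR-127-3p lie between 10.4 and 22.2 CPM.

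Among the hairpins antisense to Rtl1, miR-127-3p was the most abundant in all 7 libraries. miR-127 guides cleavage of the Rtl1 mRNA in the mouse, and its loss there disturbs the placenta. miR-127-3p had 22.2, 12.7, 10.4 and 19.5 CPM in ALAS12-KO replicates 1 to 4, against 33.6, 51.5 and 26.2 CPM in WT replicates 1 to 3. The groups did not overlap on this scale, and with TMM scaling they did. Its log2 fold change was −0.999 ± 0.39 (SE), with an edgeR adjusted p of 0.231. The other arm, miR-127-5p, had 1.67 ± 0.689 CPM (SD, n = 4) in ALAS12-KO and 3.78 ± 1.77 CPM (SD, n = 3) in WT, with a log2 fold change of −1.04 ± 0.45.

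miR-136-3p, from the hairpin nearest the start of the Rtl1 coding sequence, came next. It had 9.03, 6.54, 4.68 and 7.81 CPM in ALAS12-KO replicates 1 to 4, against 10.7, 20.8 and 12.0 CPM in WT replicates 1 to 3. The groups were apart by the step between ALAS12-KO replicate 1 and WT replicate 1, and they overlapped with TMM scaling. The log2 fold change was −0.86 ± 0.37 (edgeR adjusted p = 0.264). miR-136-5p had 3.55 ± 1.60 CPM (SD, n = 4) in ALAS12-KO and 6.43 ± 1.73 CPM (SD, n = 3) in WT, and its groups overlapped. Its log2 fold change was −0.67 ± 0.42.

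miR-434, which lies between Mir127 and Mir136, gave reads from both arms. miR-434-5p had 5.92, 2.87, 2.63 and 4.58 CPM in ALAS12-KO replicates 1 to 4, against 7.43, 12.6 and 7.64 CPM in WT replicates 1 to 3. The groups did not overlap on library totals, and they overlapped with TMM scaling. Its log2 fold change was −1.01 ± 0.40 (edgeR adjusted p = 0.239). miR-434-3p had 3.27 ± 1.53 CPM (SD, n = 4) in ALAS12-KO and 5.74 ± 1.31 CPM (SD, n = 3) in WT, and ALAS12-KO replicate 4 was above WT replicate 1. Its log2 fold change of −0.63 ± 0.41 was the one nearest 0 among the 11.

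miR-431 and miR-433 complete the antisense hairpins. miR-431-5p had 1.37, 0.396, 0.936 and 0.793 CPM in ALAS12-KO replicates 1 to 4, against 1.75, 2.00 and 1.30 CPM in WT replicates 1 to 3, from 4 to 44 reads. ALAS12-KO replicate 1 was just above WT replicate 3, so the groups overlapped. The log2 fold change was −0.78 ± 0.42 (edgeR adjusted p = 0.320). miR-431-3p had 1 read in ALAS12-KO and 3 in WT. miR-433-3p had 1 read in each genotype, so a difference of this hairpin was not detectable at this depth, although it lies between Mir431 and Mir127.

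Just before Rtl1 on the plus strand, miR-337-5p had 1.29, 0.694, 0.468 and 1.10 CPM in ALAS12-KO replicates 1 to 4. It had 2.56, 3.28 and 2.20 CPM in WT replicates 1 to 3. The groups did not overlap on library totals or with TMM scaling. With TMM scaling, all ALAS12-KO libraries were below all WT libraries for 9.33% of the 450 miRNAs. The log2 fold change of −1.42 ± 0.42 was the most negative of the 11, with an edgeR adjusted p of 0.195. It was the 1 row that DESeq2 called (adjusted p = 0.0406), and its adjusted p over all alternatives ran from 0.0406 to 0.461. It rests on 7 to 72 reads per library.

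The other upstream rows were rarer. miR-337-3p had 1.24 ± 0.392 CPM (SD, n = 4) in ALAS12-KO and 2.15 ± 0.904 CPM (SD, n = 3) in WT, with overlapping groups and a log2 fold change of −0.66 ± 0.43. miR-540-5p had 0.380, 0.297, 0.468 and 0.549 CPM in ALAS12-KO replicates 1 to 4, against 1.12, 1.59 and 0.907 CPM in WT replicates 1 to 3, from 3 to 35 reads. It reached the filter's level in 0 ALAS12-KO libraries, so the filter set its direction, and its log2 fold change of −1.37 ± 0.35 (edgeR adjusted p = 0.147) is given as a description. miR-540-3p had 11 reads in ALAS12-KO and 21 in WT, and miR-665-3p had 22 reads in ALAS12-KO and 46 in WT, both too few to be tested.

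In Rian, the reads were almost all from miR-341, whose arms are rich in G and C (76.2% of bases in the 5p arm and 66.7% in the 3p arm). miR-341-3p had 0.683, 0.495, 0.351 and 0.610 CPM in ALAS12-KO replicates 1 to 4, against 1.06, 1.73 and 1.04 CPM in WT replicates 1 to 3, from 5 to 38 reads. It reached the filter's level in 1 ALAS12-KO library, so its log2 fold change of −1.13 ± 0.41 (edgeR adjusted p = 0.220) is likewise a description. miR-341-5p went the other way, with 29 reads in ALAS12-KO and 5 in WT, and was too rare to be tested. miR-370, which in human liver cells is known to act on CPT1A, had 4 reads in ALAS12-KO and 6 in WT over both arms. The summed Rian hairpins had 1.13 ± 0.159 CPM (SD, n = 4) in ALAS12-KO and 1.56 ± 0.440 CPM (SD, n = 3) in WT, with overlapping groups.

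In order of mean CPM over the 7 libraries, miR-127-3p led, then miR-136-3p, miR-434-5p, miR-136-5p, miR-434-3p, miR-127-5p, miR-337-5p, miR-337-3p, miR-431-5p, miR-341-3p and miR-540-5p. miR-127-3p stood above miR-136-3p without overlap within either genotype. Every later pair of neighbours in this order had overlapping ranges within each genotype. Within single libraries, miR-136-3p was above miR-434-5p in 7 of 7 and miR-434-3p above miR-127-5p in 7 of 7, while the other neighbours from miR-434-5p down to miR-540-5p kept their order in 3 to 6 of 7. Mature miRNAs are of similar length, but how well each is ligated differs, so the order is one of reads.

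Both arms of 4 hairpins could be tested for arm balance, the ratio of the rarer arm to the more abundant one within a library. limma called 0 of the 130 hairpins with both arms tested (0%), and 0 of these 4. Among the 130, miR-337 had the lowest unadjusted p, 0.00429, which was 0.345 after Benjamini-Hochberg adjustment in limma. At unadjusted p under 0.05, 5.38% of the 130 hairpins were found, and 1 of these 4. The hairpins miR-337 and miR-341, whose arm shares differed most between the genotypes, are shown with the mature arms in capitals.
Mir337: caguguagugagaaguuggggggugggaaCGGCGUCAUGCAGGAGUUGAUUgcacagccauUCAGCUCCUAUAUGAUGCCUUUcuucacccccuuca
Mir341: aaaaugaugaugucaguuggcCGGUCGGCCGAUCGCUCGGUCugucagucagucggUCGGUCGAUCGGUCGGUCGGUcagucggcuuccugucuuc
The 5p arm of miR-337 took 42.5%, 41.2%, 34.8% and 45.0% of its reads in ALAS12-KO replicates 1 to 4, against 55.4%, 51.4% and 63.0% in WT replicates 1 to 3. The 3p arm was thus the larger in all 4 ALAS12-KO libraries and the 5p arm in all 3 WT libraries. Counting error was wide, with exact 95% binomial intervals of 29.3% to 61.5% in ALAS12-KO replicate 4 (40 reads) and 42.8% to 60.0% in WT replicate 2 (140 reads). Intervals cover counting error only. The log2 ratio of the 3p to the 5p arm differed by 0.89 ± 0.22 (SE).

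miR-434 had 55.8% ± 5.42 (SD, n = 4) of its reads on the 5p arm in ALAS12-KO and 61.3% ± 2.03 (SD, n = 3) in WT. Its groups did not overlap, by a narrow margin. Such a lack of overlap, in either direction, was found for 2 of these 4 hairpins and for 10% of the 130. For miR-434 the log2 ratio of the 3p to the 5p arm differed by 0.33 ± 0.20 (limma adjusted p = 0.722). For miR-127 the 5p arm took 9.29% ± 1.68 (SD, n = 4) in ALAS12-KO and 8.99% ± 1.12 (SD, n = 3) in WT. For miR-136 it took 32.8% ± 9.73 (SD, n = 4) in ALAS12-KO and 31.1% ± 3.86 (SD, n = 3) in WT. Both of these overlapped, with differences of the log2 ratio of the 5p to the 3p arm of 0.06 ± 0.19 and 0.07 ± 0.38.

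miR-341 was examined after its values were seen. Its 5p arm gave 7 of 16, 5 of 10, 13 of 19 and 4 of 14 reads in ALAS12-KO replicates 1 to 4, against 0 of 17, 1 of 39 and 4 of 12 reads in WT replicates 1 to 3. The 0 in WT replicate 1 allows a share of up to 17.6% by the limit of 3 reads, and up to 19.5% by the exact 95% binomial interval. WT replicate 3 stood above ALAS12-KO replicate 4, so the groups overlapped. The mean share was 47.7% ± 16.5 (SD, n = 4) in ALAS12-KO and 12.0% ± 18.5 (SD, n = 3) in WT, with a two-sided exact permutation p of 0.0857, where the smallest possible is 0.0286.

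**Figure D3:**
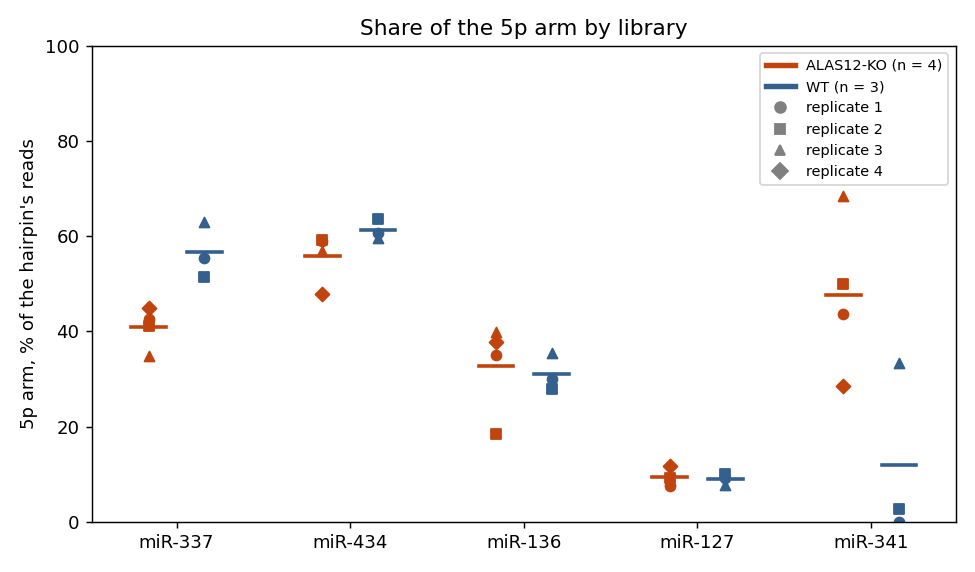
Share of the 5p arm in the reads of 5 hairpins (%), ALAS12-KO on the left of each pair and WT on the right, with lines at the means. miR-337 and miR-434 have no overlap between the genotypes, while miR-136, miR-127 and miR-341 have; miR-341 rests on 10 to 39 reads per library.

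The next miRNAs of the same domain are those of the cluster around Mirg, of which 30 of 75 rows could be tested. All 30 log2 fold changes were negative there too, with a median of −0.83, where 44.0% of all 450 miRNAs had a negative value. At unadjusted p under 0.05, 11 of the 30 were lower, where 8.44% of the 450 were. The edgeR test called 0, and DESeq2 called 2 of the 30 as lower, where it called 1.56% of the 450. miR-376c-5p and miR-496a-3p, at a mean of 0.340 and 0.396 CPM in ALAS12-KO, passed the filter through WT, so their direction came with it. The same may hold for other rows near the filter's level. The Mirg cluster had 258 ± 69.2 CPM (SD, n = 4) in ALAS12-KO and 527 ± 133 CPM (SD, n = 3) in WT, without overlap on library totals. With TMM scaling the groups overlapped, and the ALAS12-KO mean was 56.3% of the WT mean. For every 100 reads of the Mirg cluster, the 10 hairpins gave 16.7, 14.4, 15.2 and 16.3 reads in ALAS12-KO replicates 1 to 4, against 16.3, 17.6 and 15.3 reads in WT replicates 1 to 3. This ratio, which needs no library scaling, overlapped between the genotypes. The 5 miRNAs outside the 10 hairpins whose centred log2 level came closest to the summed hairpins over the 7 libraries were miR-154-5p, miR-381-3p, miR-379-5p, miR-411-5p and miR-409-3p. Their root-mean-square differences ran from 0.0907 to 0.163 on the log2 scale, against a median of 0.781 over 439 miRNAs. All 5, and the nearest 20, belong to the Mirg cluster.

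**Figure D4:**
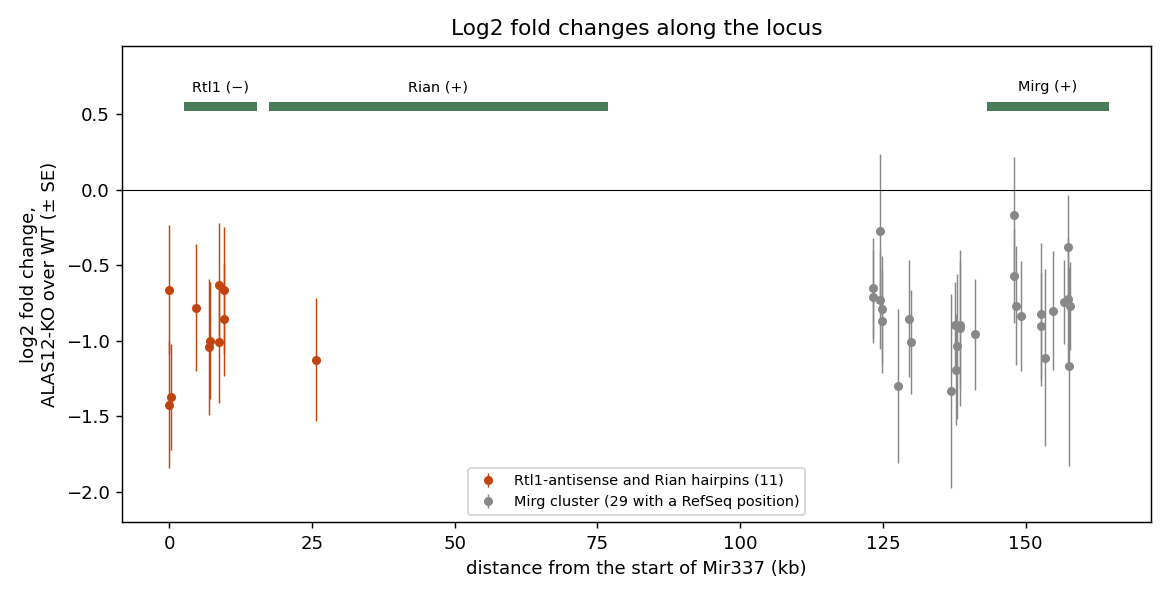
Log2 fold change (ALAS12-KO over WT, ± SE) of the 11 tested rows and of the 29 tested rows of the Mirg cluster with a RefSeq position against distance from the start of Mir337 in kb, with green bars for Rtl1, Rian and Mirg and their strands. Every point is below 0, with the 11 rows between −1.42 and −0.63.

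Markers of other liver cells were mostly lower in ALAS12-KO too, with 0 called by edgeR in any of these lists. DESeq2 called 3 of 6 tested cholangiocyte rows and 1 of 4 tested red cell rows as lower, and 0 rows of the other marker lists. Over all 450 miRNAs it called 1.56% as lower, and 44.0% had a negative log2 fold change. All ALAS12-KO libraries were below all WT libraries for 15.3% of the 450 on library totals and for 9.33% with TMM scaling. Mesenchymal markers (miR-143, miR-145a, miR-199a, miR-199b and miR-214) had negative log2 fold changes in 9 of 10 rows, with 0 of 10 rows at 0 reads. They summed to 1718 to 6305 CPM in ALAS12-KO and 4587 to 7699 CPM in WT. Across libraries their order was not that of the 10 hairpins. ALAS12-KO replicate 3, with the lowest CPM of the 10 hairpins, had 6305 CPM of these markers, and WT replicate 2, with the most, had 4587 CPM, the lowest of WT. ALAS12-KO replicate 1 had the fewest mesenchymal markers and the highest CPM of the hairpins in its genotype. Endothelial miR-126a summed to 10959 to 36485 CPM in ALAS12-KO and 35562 to 52472 CPM in WT, with overlap. With TMM scaling these sums did not overlap, with at most 32965 CPM in ALAS12-KO and at least 34965 CPM in WT. Cholangiocyte markers had 54.6 to 107 CPM in ALAS12-KO and 140 to 243 CPM in WT, without overlap, with miR-429-5p at 0. Of the 6 tested cholangiocyte rows 5 were negative, but unevenly so. miR-200a-3p, miR-200b-3p and miR-429-3p had log2 fold changes of −1.31, −1.30 and −1.27. miR-141-3p, miR-200c-3p and miR-141-5p were near 0, at −0.10, −0.07 and 0.08. The 7 tested leukocyte rows and the 4 tested red cell rows were all negative, and the leukocyte sums overlapped (2302 to 7403 CPM in ALAS12-KO and 5879 to 7778 CPM in WT). The red cell rows summed to 9.11 to 20.3 CPM in ALAS12-KO and 20.5 to 27.2 CPM in WT, and overlapped with TMM scaling. On library totals their sum was highest in WT replicate 2, as for the hairpins, and lowest in ALAS12-KO replicate 1, unlike the hairpins. Neural and endocrine markers (1433 to 1550 CPM in ALAS12-KO and 1480 to 1751 CPM in WT, miR-124-5p at 0) and muscle markers (1.21 to 6.16 CPM in ALAS12-KO and 5.15 to 8.42 CPM in WT, miR-206-5p at 0) overlapped. Most of the neural and endocrine sum was miR-7a-5p, at a mean of 1457 CPM in ALAS12-KO and 1566 CPM in WT. Of the 4 tested rows of that list 2 were negative, miR-9-5p (−0.58) and miR-375-3p (−0.55). The others were miR-128-3p (0.04) and miR-7a-5p (0.09). The part of any of these cells in the levels of the hairpins was not tested. Without ALAS12-KO replicate 1, which had the lowest sums of the mesenchymal, endothelial, leukocyte, cholangiocyte and red cell lists, 10 of the 11 rows had an unadjusted p under 0.05, 0 passed the adjusted threshold and the median log2 fold change was −1.19.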

How the data were processed

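Small RNA libraries of mouse hepatocytes were analysed in 2 genotypes, grouped by their titles: ALAS12-KO (n = 4) and WT (n = 3). The deposited tables hold whole-number read counts per mature miRNA that the authors did not normalise, judging by the values. The submitters' processing notes name cutadapt, limma, mm10 and hg38 but not their roles. Aligner, counter, use of strand and miRNA annotation: not given in the sources used here. Hence reads of miR-337 and miR-136 cannot be told from those of Mir3544 and Mir3071, which overlap them on the other strand and had 0 reads. The 5 summary rows, 58.9% to 78.2% of all counted reads, were left out. Control RNAs added to the RNA were not analysed here, so levels are relative to all miRNAs.

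The members and lists were chosen with earlier results of these data known. Differences were tested on all miRNAs with edgeR 4.0.16 in R 4.3.3 (quasi-likelihood, robust, TMM, filterByExpr with a minimum count of 10, threshold 0.05); SEs are the log2 fold change divided by the root of F. Arm ratios were tested with limma 3.58.1, with 0.5 added to each arm. DESeq2 1.42.0, limma-voom, other scalings and filters, a replicate block and leaving out libraries were tried. Named are all tested rows of the hairpins, with every library's value for the more abundant arm, and the 5 miRNAs most like their sum. In likeness, 0.05 was added to each CPM. Sequences came from RefSeq (GRCm38.p6), whose 10 hairpin positions match GENCODE M21, read with Python 3.11.15. Both tests were checked on simulated data. No libraries of a genotype were alike within sampling noise, and each counts as 1 sample.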

Additional observations from a re-analysis of the deposited data

Results flagged for a closer look

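In ALAS12-KO (n = 4), 1 of 27 measures had a library far from the others, where chance flags about 1 in 20. It was the share of miR-431 reads on the 5p arm, which was 94.1% in ALAS12-KO replicate 3 and 100% in the other ALAS12-KO libraries, against 90.9% to 97.8% in WT. The gap made up the whole range of the group, a ratio of 1, above the critical value of Dixon's test. It rests on 1 read of miR-431-3p.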

How the results depend on the processing

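The 11 single log2 fold changes kept their sign in 156 of 156 values under other scalings, tools, filters, the replicate block and each library left out. These values are refits of the same 7 libraries and of linked rows of 1 locus, so they are not independent. They include miR-540-5p and miR-341-3p, whose direction came with the filter. With library totals the median over all 450 miRNAs was −0.12 in place of 0.06, and that of the 11 was −1.20. Calls among the rows of the hairpins numbered 1 with DESeq2 (miR-337-5p) and 2 with no filter (miR-337-5p and miR-127-3p, at adjusted p of 0.0496 and 0.0310, with 13 of 1302 miRNAs called), against 0 in all others, each library left out included. With no filter 18 rows were tested and 16 were negative; the exceptions were miR-341-5p, at 2.13 ± 0.76 (SE, edgeR adjusted p = 0.142), and miR-370-5p, with 4 reads. The filter of 10 CPM kept 2 rows. Leaving out each library gave medians from −1.21 to −0.58, with −0.58 found without WT replicate 2. The log2 ratio of the mean sums ran from −1.29 to −0.81 for the upstream and antisense hairpins and from −0.66 to −0.25 for the Rian hairpins. The Rian sum reversed to 1.06 without miR-341-3p, since miR-341-5p then makes up most of it. Arm balance had 0 calls among these hairpins throughout, and with both arms at 10 CPM none of them was left. The labels do not state whether replicate numbers pair the samples. Correlations of deviations were −0.028, −0.466 and 0.0066 for replicates 1, 2 and 3, which gave no sign of pairing but cannot exclude it. With the replicate block 0 rows were called for abundance and 0 for arm balance, 4 of the 11 had an unadjusted p under 0.05, and the median was −1.11. Depth limits every row under about 1 CPM.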

Other observations

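Other miRNAs of the domain outside the Mirg cluster were almost unread. Of 16 rows of miR-770, miR-673, miR-493, miR-3070, miR-432, miR-3071, miR-1188, miR-882 and miR-1906 (also encoded on the X chromosome), 11 had 0 reads in all 7 libraries and 0 passed the filter on low counts. Their sum was 0 to 0.297 CPM in ALAS12-KO and 0.130 to 0.250 CPM in WT. Mir432 lies between Mir434 and Mir136, whose hairpins averaged 7.27 and 10.6 CPM in ALAS12-KO and 15.0 and 21.0 CPM in WT.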
